A study of Mus musculus with 6 samples.

Results

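The aquaporins are a family of membrane channels, and 7 of them, Aqp1, Aqp3, Aqp4, Aqp5, Aqp7, Aqp9 and Aqp11, are described here out of the 26814 genes counted in mouse lip. They were listed by family name, and the family was chosen by the counts of Aqp9 in the 6 libraries, in which its mean was 8.0 times as high in KO as in WT. The values of Aqp9 between genotypes are therefore a description without a test. The tissue was the top lip of adult female mice on the C57BL/6J background. The 3 WT mice were wild type and the 3 KO mice were homozygous for the targeted allele Gtf2ird1 tm1Hrd, which all their cells carry from the germ line, and each mouse gave 1 library of mRNA. Gtf2ird1 encodes a transcription factor of the Williams-Beuren syndrome region, and the comparison asks which lip transcripts differ when it is targeted. Of the 7 genes, 6 passed the filter on low values, which asked for 1 CPM (counts scaled to a common library size) or more in 3 or more libraries. Aqp11 did not pass and is given by its levels, with a fold change only from a fit without this filter.

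Aquaporins sit in the plasma membrane as tetramers in which each subunit forms its own pore. The orthodox members, among them Aqp1, Aqp4 and Aqp5, pass water and little else. The aquaglyceroporins, among them Aqp3, Aqp7 and Aqp9, also pass glycerol, and Aqp9 passes urea and further small uncharged solutes. Aqp11 belongs to an unorthodox branch that is found on intracellular membranes. In skin, Aqp3 is the channel of the epidermis and carries the glycerol that keeps the outer layers hydrated, Aqp5 is best known from the secretory cells of sweat and salivary glands, Aqp1 from blood vessels and red blood cells, Aqp4 from fast muscle fibres and glia, and Aqp7 from fat cells.

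The letters upstream of Aqp9 and of 2 relatives are shown because Aqp9 and Aqp5 had the highest KO to WT ratios of the family and Aqp3 was its most abundant member. RefSeq promoter windows, running from 250 bases before to 50 bases after an annotated start on GRCm38.p6, were found for 6 of the 7 genes. Each is printed 5′ to 3′ on the strand of its gene, with searched motifs in capitals. Aqp9 had 2 windows on the minus strand, at chr9:71162584-71162883 and chr9:71163240-71163539, and both lay inside the gene's span in GENCODE. The Aqp5 window lay at chr15:99590778-99591077 on the plus strand and the Aqp3 window at chr4:41098134-41098433 on the minus strand.
Aqp9, first window: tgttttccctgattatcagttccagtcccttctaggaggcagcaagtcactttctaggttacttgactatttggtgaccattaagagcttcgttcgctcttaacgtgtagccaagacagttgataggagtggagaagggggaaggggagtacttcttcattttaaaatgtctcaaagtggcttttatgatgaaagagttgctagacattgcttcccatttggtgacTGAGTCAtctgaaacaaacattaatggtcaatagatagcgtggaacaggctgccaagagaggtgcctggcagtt
Aqp9, second window: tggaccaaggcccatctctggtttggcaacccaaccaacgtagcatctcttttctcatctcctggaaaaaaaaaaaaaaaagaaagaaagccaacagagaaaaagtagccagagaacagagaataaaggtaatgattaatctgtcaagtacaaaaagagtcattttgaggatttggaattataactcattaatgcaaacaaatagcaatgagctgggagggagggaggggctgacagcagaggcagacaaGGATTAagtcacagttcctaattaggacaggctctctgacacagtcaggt
Aqp5: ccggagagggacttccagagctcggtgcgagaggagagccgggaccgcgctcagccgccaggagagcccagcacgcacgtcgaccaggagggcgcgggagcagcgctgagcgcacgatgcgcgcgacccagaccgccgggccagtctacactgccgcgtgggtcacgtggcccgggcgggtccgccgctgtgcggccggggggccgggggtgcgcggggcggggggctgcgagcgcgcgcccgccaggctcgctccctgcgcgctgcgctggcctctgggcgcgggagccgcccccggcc
Aqp3: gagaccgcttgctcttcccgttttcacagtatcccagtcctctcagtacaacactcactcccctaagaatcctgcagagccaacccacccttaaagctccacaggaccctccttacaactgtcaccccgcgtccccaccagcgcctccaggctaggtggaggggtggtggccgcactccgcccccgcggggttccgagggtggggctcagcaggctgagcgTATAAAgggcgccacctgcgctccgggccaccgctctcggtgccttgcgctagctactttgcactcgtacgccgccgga
The motifs searched on both strands were GGATTA, a sequence that GTF2IRD1 is known to bind, TGAGTCA, the site of AP-1 factors, the core of interferon response elements (GAAA, any 2 bases, GAAA), and TATAAA. The first Aqp9 window held TGAGTCA, which begins 24 bases before the start site (offset -24). The second held GGATTA, which begins at the start site itself (offset 0). The Aqp3 window held TATAAA at offset -29, and the Aqp5 window held no searched motif. Over all 32851 windows of this length, 7.06% held GGATTA, 5.20% TGAGTCA, 3.44% the interferon core and 13.6% TATAAA. The windows also differed in composition. GC content was 43.7% and 41.3% in the Aqp9 windows with 4 and 1 CpG, 79.7% in the Aqp5 window with 46 CpG and 64% in the Aqp3 window with 21 CpG, against a median of 52.7% over all windows. A motif match is a description of these letters and not evidence of binding.

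The study also designed a pair of RTqPCR primers for Aqp9, shown because they say which transcripts that assay can reach.
Aqp9 forward primer: gtgcctttgtagaccaagtggtg
Aqp9 reverse primer: gtgaagacctcaaatccccatcct
Matched to the GENCODE transcripts of GRCm38, both primers were found in the 3 protein-coding transcripts of 10, with a product of 235 bases in each. In the transcript of 2643 bases the forward primer crosses from exon 4 into exon 5 of 6, and the reverse primer lies in exon 5. The matched bases run from 71122791 to 71130437 on chromosome 9, so an intron lies within the forward primer's site in the genome. The RTqPCR values were not analysed here.

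The libraries held 20164081 (KO1) to 29491767 (KO2) counts on genes. A gene with 0 counts could still hold up to 3 of them, which is 0.0986 to 0.154 CPM, and this limit covers counting error only. Gtf2ird1 itself had 70.2 to 78.2 CPM in WT and 144 to 166 CPM in KO. Its log2 fold change of 1.11 (SE 0.13, adjusted p = 0.0018 in edgeR's quasi-likelihood test) points upward under the KO label. Counts over the whole gene do not show whether the targeted allele gives working protein, and the cause of the rise was not tested. Every direction below is given for the libraries labelled KO or WT. KO3 stood closer to the WT libraries than KO1 and KO2 did. Across the tested genes, Pearson's r of log2 CPM against the WT libraries was 0.948 to 0.955 for KO3 and 0.907 to 0.933 for KO1 and KO2, and genes are not independent replicates. Results that rest on KO3 are therefore also given without it. The tissue label held against markers of epidermis, with Krt5 and Krt14, the keratins of its basal layer, at 3488 CPM or more in every library and Alb of liver at 0.0915 CPM or less.

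In the lip, the family was led by Aqp3 (ENSMUSG00000028435, chromosome 4, 41092722 to 41098183), the epidermal glycerol channel. To compare genes, CPM were divided by the length of each gene's merged exons in kb. By this measure WT lip held 260 ± 31.2 CPM per kb of Aqp3 (SD, n = 3), 78.2 ± 6.68 of Aqp1, 5.34 ± 0.23 of Aqp9, 4.08 ± 0.75 of Aqp5, 1.17 ± 0.41 of Aqp7, 0.50 ± 0.13 of Aqp4 and 0.097 ± 0.040 of Aqp11. The levels per length thus fell in steps from the epidermal to the intracellular channel. The gaps between neighbours in this order were tested within libraries over all 6 of them. Since the order came from the WT means of the same libraries, the direction in WT was largely set in advance. The p-values are therefore a description and not independent support. Aqp3 lay above Aqp1 in 6 of 6 libraries, and so did Aqp5 above Aqp7 and Aqp4 above Aqp11 (two-sided exact sign-flip permutation test, p = 0.031, the smallest that 6 libraries allow, adjusted p = 0.047 over all 6 neighbour pairs, those with Aqp9 included). In the libraries labelled KO, which did not set the order, each of these pairs kept its direction in 3 of 3. The sizes of the gaps differed by genotype, with Aqp5 at 3.11 to 4.66 times Aqp7 in WT and 20.5 to 67.6 times in KO. Aqp7 lay above Aqp4 in 3 of 3 WT libraries and in 1 of 3 libraries labelled KO, and over the 6 libraries their difference did not pass the test (exact permutation p = 0.125, adjusted p = 0.125). For the pairs with Aqp9 no p is given, since its levels chose the family. In WT, Aqp1 had 13.7 to 15.5 times the level per length of Aqp9, whereas in the libraries labelled KO it had 0.87 to 2.15 times that level and was lower than Aqp9 in KO1 and KO2. Aqp9 lay above Aqp5 in all 6 libraries, by 1.15 to 1.59 times in WT and 1.45 to 1.75 times in KO.

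**Figure D1:**
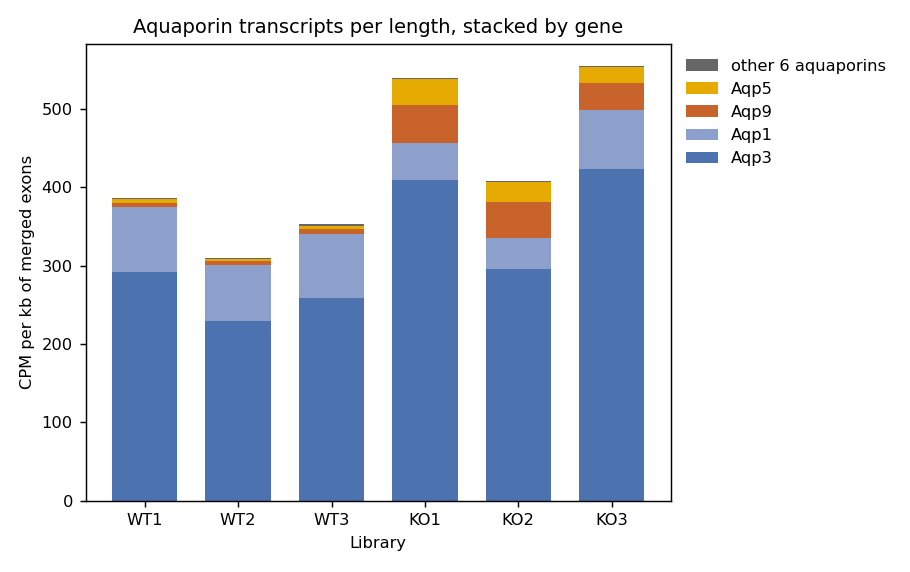
Stacked bars of aquaporin transcripts in CPM per kb of merged exons (y axis, linear from 0) for each of the 6 libraries (x axis). Aqp3 makes up 72.5% to 76.4% of every bar, while the blocks of Aqp9 and Aqp5 are thin in WT and visible in the libraries labelled KO.

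The shares of Aqp1, Aqp9 and Aqp5 differed between the genotypes, while that of Aqp3 did not separate them. Each share is of a sum that includes Aqp9, by which the family was chosen. A difference in composition was thus partly set in advance, and shares without Aqp9 were not computed. Aqp3 made up 73.4% to 75.6% of the summed level per length in WT and 72.5% to 76.4% in KO. Aqp1 made up 21.3% to 23.2% in WT and 8.70% to 13.4% in KO. Aqp9 went from 1.38% to 1.65% in WT to 6.26% to 11.2% in KO, and Aqp5 from 1.04% to 1.25% to 3.65% to 6.38%. The summed level itself was 310 to 387 CPM per kb in WT and 408 to 555 CPM per kb in KO, and these ranges include Aqp9, by which the family was chosen. Without Aqp9 the sum was 305 to 381 CPM per kb in WT and 363 to 520 in KO, and the groups overlapped at KO2. Without Aqp5 as well it was 302 to 377 CPM per kb in WT and 337 to 500 in KO.

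Aqp9 and Aqp3 lay higher in every library labelled KO than in any labelled WT, as did 13.5% of all tested genes (18.1% lay lower and 31.5% did not overlap in either direction), and Aqp7 lay at 1.38 to 2.79 CPM in KO against 1.96 to 4.0 CPM in WT. Aqp9 (ENSMUSG00000032204, chromosome 9, 71110659 to 71168682), the broadest solute channel of the 3, had 607, 500 and 514 counts in WT1, WT2 and WT3 and 3880, 5743 and 3150 counts in KO1, KO2 and KO3. Scaled to library size these were 22.0, 21.3 and 23.1 CPM in WT and 199, 189 and 144 CPM in KO. The WT libraries were close to one another, with a coefficient of variation of 4.22%, and the KO libraries lay far above them with one of 16.4%. The log2 fold change was 3.00 (SE 0.16), and leaving out any 1 library gave values from 2.97 to 3.13. Of the 15009 genes tested, 170 had a larger log2 fold change upward. The span of Aqp9 overlaps those of Gm47268 and Gm32511 on the opposite strand in GENCODE. Whether their exons overlap was not checked, and the strand setting of the counting is not stated. Whether these genes affected the counts of Aqp9 is therefore not known.

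Aqp3 was abundant in both genotypes. It had 535, 421 and 474 CPM in WT1, WT2 and WT3 and 750, 541 and 775 CPM in KO1, KO2 and KO3. All 3 libraries labelled KO lay above all 3 labelled WT, but KO2 exceeded WT1 by only a small margin. The log2 fold change was 0.53 (SE 0.18, 95% interval 0.11 to 0.96) and did not pass the threshold in edgeR's quasi-likelihood test (adjusted p = 0.107). DESeq2's Wald test gave 0.57 and called it (adjusted p = 0.0352), and the adjusted p lay between 0.0352 and 0.278 over all alternatives.

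Aqp7 (ENSMUSG00000028427, chromosome 4, 41033074 to 41048139), through which fat cells release glycerol, is the neighbour of Aqp3, and the gap between the genes is 44582 bases. It had 3.96, 1.96 and 4.0 CPM in WT1, WT2 and WT3 and 1.38, 1.41 and 2.79 CPM in KO1, KO2 and KO3. KO1 and KO2 were the lowest libraries, whereas KO3 lay above WT2, so the groups overlapped. The log2 fold change of -0.83 (SE 0.38, 95% interval -1.71 to 0.04) did not pass the test (edgeR, adjusted p = 0.183). Without KO3, the KO library nearest to the WT mean for Aqp7, it was -1.23 and passed (edgeR, adjusted p = 0.0233). That fit called 2395 of all genes lower, against 314 with all 6 libraries, so the call is not particular to Aqp7.

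**Figure D2:**
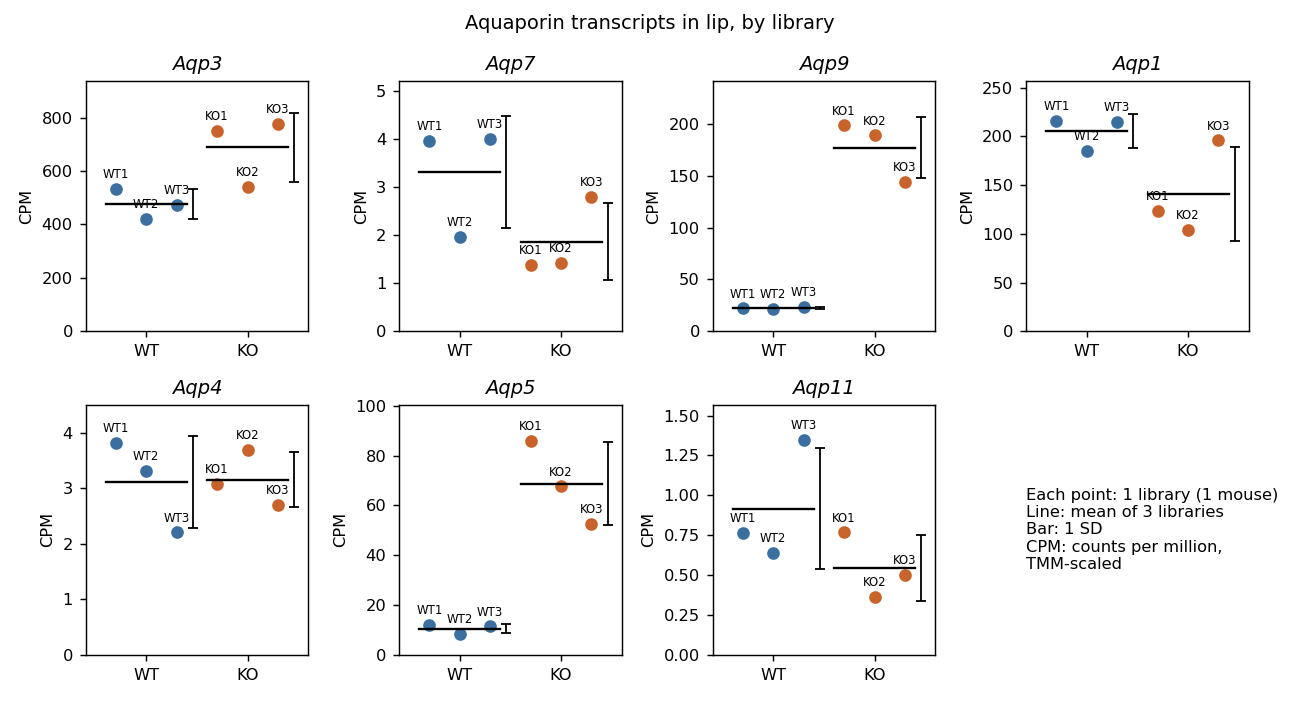
CPM of the 7 aquaporins (y axes, linear from 0, a separate scale per gene) by genotype, with 1 point per library, a line at the mean and a bar of 1 SD (n = 3 mice per group). Aqp9 and Aqp5 separate widely, Aqp3 narrowly, and the other panels overlap.

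Among the water channels, Aqp5 was higher in the libraries labelled KO, while Aqp1 and Aqp4 did not pass the test. Besides Aqp9, 5 members were tested, and of these 1 was called higher and 0 lower in edgeR's quasi-likelihood test. Of all 15009 genes, 4.38% were called higher, 2.09% lower and 6.47% in either direction. At an unadjusted p under 0.05 there were 3 of the 5, against 29.6% of all genes. Of these 5, edgeR's exact test called Aqp5 alone and DESeq2's Wald test called Aqp5 and Aqp3, all higher. Over all genes the exact test called 7.76% higher, 7.15% lower and 14.9% either way, and DESeq2 called 8.93% higher, 5.31% lower and 14.2% either way, and these shares are the background for the counts of both tools below. Aqp5 (ENSMUSG00000044217, chromosome 15, 99590782 to 99594829) had 12.0, 8.37 and 11.4 CPM in WT1, WT2 and WT3 and 85.8, 67.6 and 52.6 CPM in KO1, KO2 and KO3. The lowest library labelled KO thus had more than 4 times the level of the highest WT library. The mean rose from 10.6 ± 1.95 to 68.7 ± 16.6 CPM (SD, n = 3), which is a ratio of 6.48. The log2 fold change was 2.69 (SE 0.23, adjusted p = 0.000349), and without single libraries it ranged from 2.57 to 2.86. Over all alternatives the adjusted p stayed at or under 0.00436. A larger log2 fold change upward was seen in 193 of the 15009 genes.

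Aqp1 (ENSMUSG00000004655, chromosome 6, 55336432 to 55348555), the water channel of blood vessels, pointed downward in KO1 and KO2. It had 216, 185 and 215 CPM in WT1, WT2 and WT3 and 123, 104 and 196 CPM in KO1, KO2 and KO3. KO3 lay within the WT range, and the spread in KO was wide, with a coefficient of variation of 34.4% against 8.55% in WT. The log2 fold change was -0.54 (SE 0.23, 95% interval -1.07 to -0.01, adjusted p = 0.163 in edgeR's quasi-likelihood test). Without KO3, the KO library nearest to the WT mean for Aqp1, it was -0.85 and passed (edgeR, adjusted p = 0.00364). That fit called 2395 of all genes lower, against 314 with all 6 libraries.

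Aqp4 (ENSMUSG00000024411, chromosome 18, 15389496 to 15410982), which is anchored to the dystrophin complex at the muscle fibre membrane, had 3.81, 3.32 and 2.20 CPM in WT1, WT2 and WT3 and 3.07, 3.68 and 2.70 CPM in KO1, KO2 and KO3. The KO libraries all lay inside the WT range. The log2 fold change was 0.02 (SE 0.26, 95% interval -0.58 to 0.61, adjusted p = 0.967 in edgeR's quasi-likelihood test), so that a change within this interval was not detectable at this depth. It turned to -0.18 without WT3 and to -0.06 without KO2. The span of Aqp4 overlaps that of AC133525.2 on the opposite strand, and overlap of their exons was not checked.

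**Figure D3:**
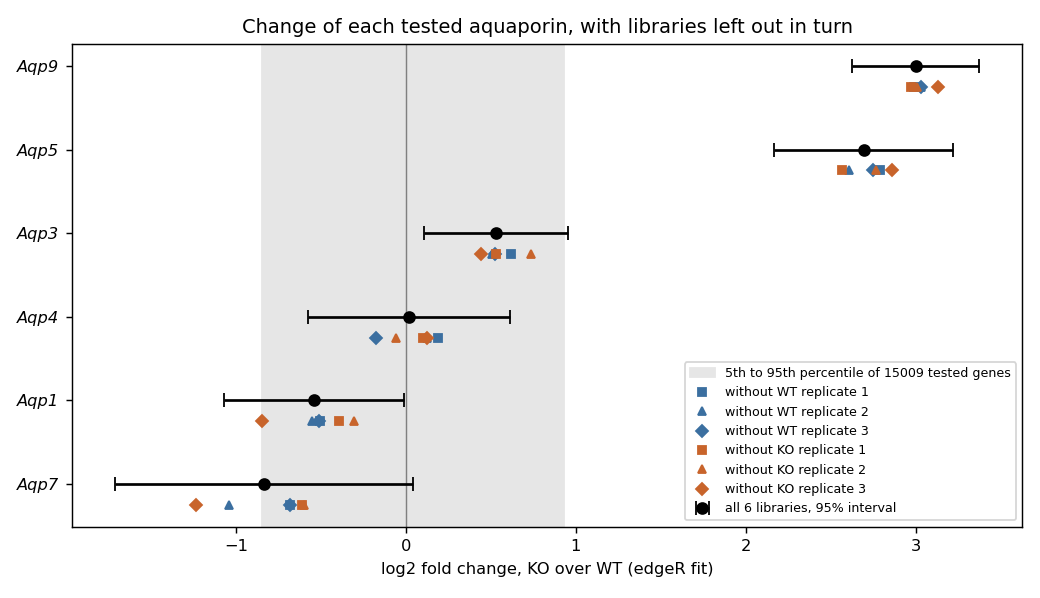
Log2 fold change of the 6 tested aquaporins (x axis, KO over WT, edgeR) with the 95% interval (black), the same value with each library left out in turn (coloured marks), and the 5th to 95th percentile of all 15009 tested genes (grey, -0.85 to 0.93). Aqp5 lies outside the grey band with every library left out, and Aqp1 and Aqp7 move furthest down without KO3. Aqp9 lies outside it too, but the family was chosen by its rise, so its place and interval are a description.

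The remaining members were near the limit of detection. Aqp11 (ENSMUSG00000042797, chromosome 7, 97724006 to 97738289), the intracellular channel, had 0.76, 0.64 and 1.35 CPM in WT1, WT2 and WT3 and 0.77, 0.36 and 0.50 CPM in KO1, KO2 and KO3, from 11 to 30 counts per library. The groups overlapped, and Aqp11 was not in the main fit. In the fit without a filter its log2 fold change was -0.74 (SE 0.41, adjusted p = 0.347 in edgeR's quasi-likelihood test). Aqp2, the kidney channel that answers to vasopressin, had 0, 0 and 2 counts in WT and 4, 4 and 2 in KO. Mip, the lens channel, had at most 1 count in any library, and Aqp12, a channel of the pancreas, at most 3. Both groups of these 3 genes lay at or near 3 counts, so no fold is given. Aqp6 and Aqp8 were looked up and were not among the 26814 genes counted, so they have no values here. Aqp5 lies between Aqp2 and Aqp6 on chromosome 15, and the gap to Aqp2, which stayed near 0, is 6234 bases.

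The KO library nearest to the WT mean was KO3 for Aqp1, Aqp5, Aqp7 and Aqp9, KO2 for Aqp3 and KO1 for Aqp4. The pattern over the 6 libraries was compared between genes by the root mean square (RMS) difference of their log2 CPM, each gene centred on its own mean. Aqp9 and Aqp5 differed by 0.22, and Aqp9 was the gene in place 5 nearest to Aqp5 among 15008. The 5 genes nearest to Aqp9 were 2610206C17Rik (RMS 0.14, log2 fold change 3.11), Supt3 (0.16, 2.87), Ceacam1 (0.16, 3.00), Ulk4 (0.18, 3.25) and Gm4285 (0.18, 3.12). Aqp5 had Glis1 (0.16), Gm6264 (0.21) and Supt3 (0.22) nearest to it, so Supt3 stood on both lists. Aqp3 was nearest to Pfkl (0.044), Thbd (0.052) and Dlx5 (0.061), Aqp1 to Vash2 (0.050), Sncg (0.050) and Ttll11 (0.057), Aqp7 to Pxmp4 (0.067), Qprt (0.086) and Grrp1 (0.099), and Aqp4 to Wfikkn1 (0.10), Crem (0.11) and Ms4a2 (0.11). Closeness here was picked out of all tested genes over 6 libraries and is a description. Aqp1 and Aqp7, on different chromosomes, differed by 0.30.

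The genes that work with the aquaporins were described from fixed lists by their counts and medians in the same fit, beside a median log2 fold change of -0.02 over all genes. Of 16 genes of glycerol handling tested, 2 were called higher and 0 lower in edgeR's quasi-likelihood test, with a median of -0.37. The exact test called 3 higher and 4 lower, DESeq2 called 3 higher and 3 lower, and 10 had an unadjusted p under 0.05. The 2 called higher by the quasi-likelihood test were Gpd2, the mitochondrial glycerol-3-phosphate dehydrogenase (log2 fold change 0.77, SE 0.14, adjusted p = 0.0183), and Abhd5, the coactivator of triglyceride breakdown (0.81, adjusted p = 0.011, edgeR). Mgll, Dgat2 and Pnpla2, the most abundant of the list, had log2 fold changes of -0.77, -0.15 and -0.93 and did not pass. Glycerol kinase, counted under the older symbol Gyk and named here after its values were seen, had 21.0 to 32.0 CPM in WT and 76.8, 42.7 and 27.6 CPM in KO1, KO2 and KO3 (edgeR, adjusted p = 0.163). Of 14 tested genes of osmotic and volume regulation 0 passed in either direction in edgeR's quasi-likelihood test, with a median of 0.05, while 5 had an unadjusted p under 0.05, edgeR's exact test called 1 lower and DESeq2 called 1 higher and 1 lower. Its most abundant members were the taurine transporter Slc6a6 (-0.50), the kinase Wnk1 (0.32) and Sgk1 (-0.34). Of the 12 genes of the dystrophin and syntrophin complex, which holds Aqp4 in place, 0 passed in edgeR's quasi-likelihood test while all 12 log2 fold changes were negative, with a median of -0.56. Here 6 of 12 had an unadjusted p under 0.05, against 29.6% of all genes, and the exact test called 4 lower and DESeq2 2. Dag1 and Dmd were at -0.47 and -0.58 and Utrn at 0.00 on the log2 scale.

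Lip is a mixture of cells, and in bulk RNA fewer cells of a type and less RNA per cell cannot be told apart. Markers of the cell types known for single aquaporins were therefore set beside them by summed CPM. The endothelial markers had 350 to 411 CPM in WT and 214, 243 and 386 CPM in KO1, KO2 and KO3. Their sum was thus low in the same libraries, KO1 and KO2, in which Aqp1 was low, and all 14 were tested with 14 of 14 negative (median -0.46). None was called by edgeR's quasi-likelihood test, 6 had an unadjusted p under 0.05, and the exact test and DESeq2 each called 1 lower. Vwf, Eng and Pecam1 were the most abundant, with log2 fold changes of -0.41, -0.39 and -0.09. Red blood cells also carry Aqp1, and their markers had 56.4 to 158 CPM in WT and 36.3 to 103 CPM in KO. Of 6 tested 1 was called lower, Slc4a1, the anion exchanger (-1.02, edgeR, adjusted p = 0.0282), and the exact test and DESeq2 also called 1. Adipocyte markers, beside Aqp7, had 485 to 530 CPM in WT and 266 to 350 CPM in KO, and 2 of 13 tested were called lower, the fatty acid binding protein Fabp4 (-0.65, adjusted p = 0.0303) and the lipid droplet protein Plin4 (-1.04, adjusted p = 0.0496), while the exact test called 5 lower and DESeq2 3. The adipocyte sum rests mostly on its abundant members, with WT means of 140 CPM for Lpl, 122 for Slc2a4 and 94.7 for Plin4. Adipoq and Plin1 had WT means of 7.38 and 6.15 CPM. All 13 tested adipocyte markers were negative, and whether the abundant ones are particular to fat cells in lip was not tested. The part of these cell types in the values of Aqp1 and Aqp7 was not tested.

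Skeletal muscle markers, beside Aqp4, had 13638 to 18801 CPM in WT and 5544 to 11573 CPM in KO. Of 17 tested 3 were called lower (edgeR), Tnnt3 (-1.01, adjusted p = 0.0397), Tnni2 (-1.05, adjusted p = 0.0484) and Pvalb (-1.17, adjusted p = 0.0343), the first 2 being troponins and the last the calcium buffer of fast fibres, and all 17 were negative with a median of -1.0. The exact test called 14 of the 17 lower and DESeq2 12, and 16 had an unadjusted p under 0.05. The mean sum in KO was 0.51 times that in WT, while the level of Aqp4 did not separate from the replicate spread, at 3.15 ± 0.50 CPM in KO and 3.11 ± 0.82 CPM in WT (SD, n = 3). Basal keratinocyte markers, beside Aqp3, had 11414 to 12308 CPM in WT and 11710 to 12972 CPM in KO, with 1 of 10 called higher, the cytoskeletal linker Dst (1.37, edgeR, adjusted p = 0.0343), and 1 by the exact test and by DESeq2. The ratio of that sum was 1.06 against 1.45 for Aqp3.

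The summed level of the suprabasal keratinocyte markers was 21650 to 26222 CPM in WT and 49443, 42126 and 32618 CPM in KO1, KO2 and KO3, and Aqp9 and Aqp5 were also highest in KO1 and lowest of the KO libraries in KO3. Most of the sum was Krt1 and Krt10, keratins of the suprabasal layers, which were highest in KO1, while Ivl, Flg and Lor were highest of the KO libraries in KO2. The sum had a KO to WT ratio of 1.68, against 8.0 for Aqp9 and 6.48 for Aqp5. Of 11 tested 1 was called higher, Ivl, a cornified envelope protein (1.55, edgeR, adjusted p = 0.0292), and the median was 0.40. Of the 11 log2 fold changes 9 were positive and 2 negative, those of Lor (-0.32) and Krt77 (-0.53). The exact test and DESeq2 each called 5 higher, and 5 had an unadjusted p under 0.05. Neutrophils are a known source of Aqp9, and their markers had 45.2 to 62.3 CPM in WT and 177, 46.2 and 46.7 CPM in KO1, KO2 and KO3. In KO2 and KO3 the neutrophil sum lay within the WT range while Aqp9 was at 189 and 144 CPM. Outside KO1 the largest member of that sum was Il1r2. It had 20.5 to 31.8 CPM in WT, 27.7 CPM in KO2 and 24.6 CPM in KO3, so the sum there leans on 1 gene. The rise in KO1 came with S100a8 and S100a9, at 64.8 and 67.1 CPM there. Whether these 2 are particular to neutrophils in lip was not tested. Of 6 tested markers 0 passed (edgeR's quasi-likelihood test, median 0.48), with 1 at an unadjusted p under 0.05 and 0 called by the exact test or DESeq2. Of these 6, 5 had a positive log2 fold change and 1 a negative one. The marker with an unadjusted p under 0.05 was Cxcr2 (0.72), at 1.98 to 3.45 CPM in WT and 3.38 to 4.71 CPM in KO. The members not tested had at most 12 counts in any library. Among them Ltf, a defining granule gene, had 0 counts in all WT libraries, KO2 and KO3 and 1 in KO1. Retnlg had 12, 3 and 9 counts in WT and 6 in KO1, and Camp 3, 2 and 3 in WT and 1 in KO1. Mmp8 had 3, 4 and 3 in WT and 6 in KO1. Mpo had 2 counts in each WT library and 3, 6 and 2 in KO1, KO2 and KO3. Secretory gland markers, beside Aqp5, had 84.4 to 107 CPM in WT and 119 to 172 CPM in KO, most of it Slc12a2, the chloride cotransporter that other epithelia also use. Of 6 tested 2 were called higher, Chrm3, the muscarinic receptor that drives secretion (4.66, edgeR, adjusted p = 3.51e-05), and Lpo, lactoperoxidase (3.97, adjusted p = 0.0316), and the exact test and DESeq2 also called 2. Lpo had 31.0, 5.79 and 3.80 CPM in KO1, KO2 and KO3, so most of its level in KO came from KO1. The others tested were Slc12a2 (0.40), Amy1 (-0.01), Krt8 (-0.68) and Krt18 (-0.53), which did not pass. The defining gland genes Muc5b, Bhlha15, Muc19 and Scgb3a1 had at most 1.03 CPM in any library and were not tested. Markers of kidney and liver, which also use several aquaporins, had sums of 0.77 to 1.45 CPM in WT and 1.10 to 1.45 CPM in KO. The part of keratinocyte, neutrophil and gland cells in the values of Aqp9 and Aqp5 was not tested further.

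**Figure D4:**
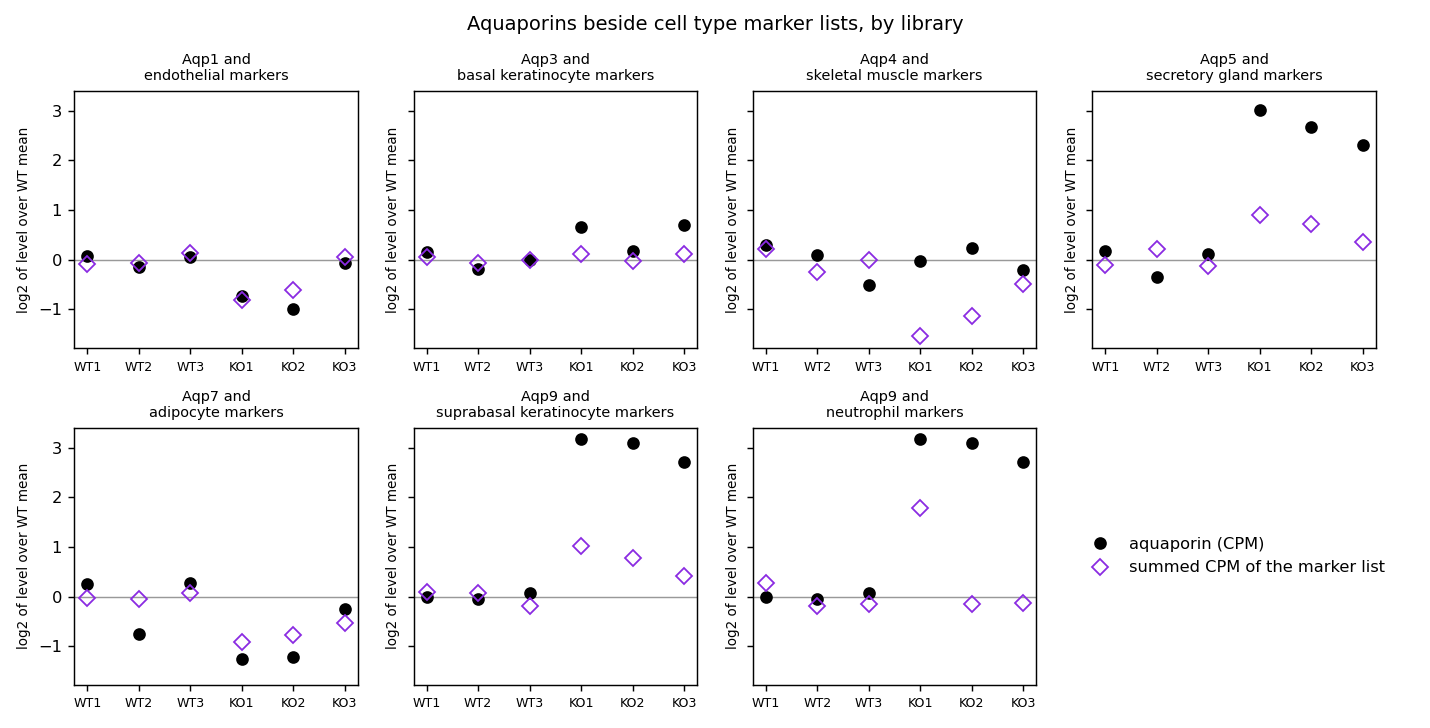
Level over the WT mean (y axes, log2, shared scale) in each library (x axis) for an aquaporin (black points) and for the summed CPM of a marker list (open diamonds). The endothelial sum lies close to Aqp1 in KO1 and KO3 and above it in KO2 (-0.61 against -0.98). The muscle sum lies below Aqp4 in all KO libraries, and the neutrophil marker sum is raised in KO1 while Aqp9 is raised in all 3.

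Within 500 kb of Aqp9, 5 other genes were tested and 1 was called, lower, Aldh1a2, a retinoic acid synthesis enzyme (log2 fold change -0.80, edgeR, adjusted p = 0.0478). Around Aqp5, 17 were tested, from -0.80 to 1.80 with a median of -0.22, and 1 was called higher, Faim2 (1.80, edgeR, adjusted p = 0.00856). Around Aqp11 1 of 17 was called higher, Acer3 (0.71, edgeR, adjusted p = 0.0365). None was called among the 18 around Aqp3, the 18 around Aqp7, the 7 around Aqp1 or the 2 around Aqp4 by edgeR's quasi-likelihood test, where Aqp3 and Aqp7 count among each other's neighbours. Of these 28 genes in all, 10 had an unadjusted p under 0.05, against 29.6% of all genes, the exact test called 3, against 14.9%, and DESeq2 called 4, against 14.2%. These neighbours were looked up after the values of the members had been seen.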

How the data were processed

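The 6 libraries, 3 WT and 3 KO with 1 mouse each, were grouped by their labels. The values are raw counts per gene symbol, made by the authors with HTSeq-count after alignment to GRCm38 by TopHat2 2.0.8 calling Bowtie2 2.1.0, as the submitters' processing notes and the paper name them. The strand setting is not stated. All 6 columns were used (0 unused), and 0 entries named no gene. Depth was 20164081 to 29491767 counts.

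Genes reaching 1 CPM in 3 or more libraries (15009 of 26814, at least 99.8% of counts) were tested with edgeR 4.0.16 in R 4.3.3, using TMM scaling, estimateDisp, glmQLFit (legacy=FALSE) and glmQLFTest, with Benjamini-Hochberg adjustment over all tested genes and a threshold of 0.05. CPM are scaled by TMM. The study's own test was edgeR's exact test, which was one of 8 alternatives besides the left-out libraries, the others being DESeq2 1.42.0, limma-voom (limma 3.58.1), DESeq2's size factors, library size alone, no filter, a minimum of 10 counts per library, and a replicate block. Patterns were compared on log2 CPM with a prior count of 2. Lengths and positions are from GENCODE on GRCm38, in which 24858 of 26814 symbols were found, and sequences from RefSeq or the study's primer list. In simulated KO against WT counts over 15009 genes, 88.5% of 200 changed genes were recovered with 3.80% false calls. The planted changes were 2-fold, of which 77.6% were recovered, or 4-fold, of which 99.0% were. Smaller changes, such as those estimated for Aqp1, Aqp3 and Aqp7, were not simulated, so their recovery is unknown.

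The members, lists and tests were chosen with earlier results of these data known. Named genes are the aquaporins, from each list the called members (up to 4 per direction) or otherwise the 3 most abundant, Gtf2ird1, the 5 genes nearest to Aqp9 and the 3 nearest to each other member. Genes named outside this rule are further members of a list and the called neighbours, chosen after their values were seen. Libraries come from separate mice.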

Additional observations from a re-analysis of the deposited data

How the results depend on the processing

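Aqp9 had log2 fold changes from 2.97 to 3.13 over the alternatives, and its direction was largely set by the choice of the family. Aqp5 kept its direction and its call under every alternative, from 2.57 to 2.86. Aqp3 was called by DESeq2's Wald test (0.57) and by no other alternative, and Aqp1 and Aqp7 were called lower when KO replicate 3 was left out and under no other. Without single libraries, log2 fold changes ranged between -0.85 and -0.31 for Aqp1, 0.44 and 0.74 for Aqp3, -1.23 and -0.60 for Aqp7, and -0.18 and 0.19 for Aqp4, which turned negative without WT replicate 3 (-0.18) and without KO replicate 2 (-0.06). The counts of called genes moved more. Genes higher in KO numbered 657, but 1165 with edgeR's exact test and 1511 with DESeq2's Wald test. Genes lower in KO numbered 314, but 1073 with the exact test, 898 with the Wald test, 207 with DESeq2's size factors, 204 without a filter and 204 with at least 10 counts in every library. Left-out libraries gave 208 to 2496 genes higher and 18 to 2395 lower, the high ends without KO replicate 3. The cause was not tested. Whether the replicate numbers pair the samples was not settled. Deviations of same-numbered libraries correlated at -0.19, 0.29 and 0.31, and libraries of different numbers were not compared. The replicate block gave 580 genes higher and 217 lower and changed no call of an aquaporin. With 5 libraries the sign-flip test of neighbouring levels cannot pass the threshold. The mean log2 difference per length then lay between 2.12 and 2.41 for Aqp3 over Aqp1, 0.51 and 0.63 for Aqp9 over Aqp5, 3.13 and 4.02 for Aqp5 over Aqp7, and 2.56 and 3.09 for Aqp4 over Aqp11. Aqp4, Aqp7 and Aqp11 rest on 11 to 112 counts per library, which limits their precision.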
